A study of Canis lupus familiaris with 51 samples.

Results

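Mast cells store proteases and small amines in secretory granules, ready for release. The proteoglycan serglycin (SRGN) is the scaffold of these granules: its sulfated heparin and chondroitin chains bind the proteases, and NDST2 sulfates the heparin chains. Chymase (CMA1), tryptase (TPSAB1) and cathepsin G (CTSG) are serine proteases of the granule, carboxypeptidase A3 (CPA3) trims peptides beside them, histidine decarboxylase (HDC) makes histamine, and the vesicular transporter SLC18A2 loads histamine and serotonin into the granule. The abundance of such products is part of how mast cells are recognised in tissue, and granules are fewer in poorly differentiated canine mast cell tumors (MCTs). These 8 genes were taken by name from the gene names and descriptions of the array probes, tryptase also under its older names. Of the 8, 6 had a probe, 9 probes in all among 43603 probes on the array, while CPA3 and HDC were not analysed here. The 6 genes stand among 10590 gene symbols with a probe.

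The tumors were 51 spontaneous cutaneous MCTs of dogs, 1 per one-colour Agilent array, each sampled from the centre of the mass at surgery. No transgene, cell line or treatment group was involved, and every array holds tumor tissue, so no normal skin or normal mast cells serve as a control. The study chose 18 tumors as reference samples from their histology: 13 differentiated MCTs of low grade with few mitoses and 5 undifferentiated MCTs of high grade with many. It assigned the other 33 by class prediction from these arrays, 7 as undifferentiated and 26 as differentiated, and they are called predicted here. The undifferentiated reference tumors are T9.1, T57.1, T73, T90 and LM0, of which LM0 was matched to its class by elimination. Dogs were 3 to 14 years old and of many breeds, 19 labelled male, 30 female and 2 without a sex.

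Levels are log2 intensities, quantile-normalised over the 51 arrays, so that 1 unit is a fold of 2, and they can be compared between tumors for 1 probe but not between probes. Between 59.4% and 74.8% of the spots of an array were well above background, with medians between 67.1% and 69.5% in the 4 groups. No member spot was itself saturated or flagged as an outlier on any array. The background ring around the spot was flagged on 32 arrays for the main TPSAB1 probe, 4 of the 5 undifferentiated reference tumors among them. For CMA1 it was flagged on 16 arrays, and spots with such rings were kept. The tumors were scanned in 9 sessions on 15 slides, and 4 of the 5 undifferentiated reference tumors shared a session with differentiated reference tumors. LM0 did not, so reference differences within sessions, or with session as a block, do not draw on it. Calls between classes required a fold of 2 or more together with a limma adjusted p (Benjamini-Hochberg over all probes) below 0.01.

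The probes show which stretch of each transcript was read. They are given 5′ to 3′ as designed, without any part marked, for the 3 proteases and for SRGN (second probe), the member that was called between classes.
CMA1: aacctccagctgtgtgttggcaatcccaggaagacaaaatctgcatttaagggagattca
TPSAB1 main probe: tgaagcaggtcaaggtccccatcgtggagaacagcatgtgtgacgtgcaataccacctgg
TPSAB1 second probe: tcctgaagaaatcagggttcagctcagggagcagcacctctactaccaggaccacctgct
CTSG: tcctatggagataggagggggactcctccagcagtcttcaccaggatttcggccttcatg
SRGN second probe: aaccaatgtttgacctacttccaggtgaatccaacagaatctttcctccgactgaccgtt

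Each of these probes is 60 bases long. In the coordinates of the scanner output, whose genome build is not named, the CMA1 probe lies at chr8:7444155-7444610, a span of 456 bases and so longer than the probe. The CTSG probe lies near it, at chr8:7489062-7489121. Both genes belong to the chymase locus, a cluster of granule protease genes. Dog tryptase stands in the files as LOC100049001, with its main probe at chr6:42547495-42547554 and its second at chr6:42547105-42547164. The SRGN probes lie at chr4:23450530-23450589 (main) and chr4:23445670-23445729 (second), the NDST2 probes at chr4:27445667-27445726 (main) and chr4:27446214-27446273 (second), and the SLC18A2 probe at chr28:30768653-30768712. The main probe of a gene is the one with the higher mean level, as both probes of each such gene were well above background on all 51 arrays. The main NDST2 probe is named only in its description, as similar to bovine NDST2. The longest run of bases that a member probe shared with any other probe of the array was between 12 and 15. With array probes of mastin, a dog protease related to tryptase, either tryptase probe shared at most 6. Only probes were compared, not transcripts, and the main and second TPSAB1 probes, of the same gene, shared just 8. The runs therefore cannot show whether RNA of mastin or another gene binds a member probe, which was not tested.

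The probes of the same gene gave nearly the same order of tumors. Over the 51 tumors Pearson r was 0.99 for the pair of TPSAB1 probes, 0.98 for NDST2 and 0.97 for SRGN. The pairs share tumors and arrays, and each r describes probe agreement only. All members except CTSG were well above background on 51 of 51 arrays. CTSG was so on 36 of 51, namely 5 of 5 undifferentiated and 12 of 13 differentiated reference tumors, and 4 of 7 and 15 of 26 predicted ones, so that its lower values lie near the background.

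In the reference tumors SRGN was higher in undifferentiated MCTs, and no other member passed the limits. The 2 SRGN probes were the only ones of 9 member probes called, both higher, where 0.975% of all probes tested were called higher and 1.85% in either direction. SRGN holds the granule together and is also made by other blood-derived cells. The level of its main probe was 16.62 in T9.1, 16.45 in T73, 16.44 in T57.1, 15.72 in T90 and 15.54 in LM0. In the 13 differentiated tumors it had a lowest value of 14.33, a median of 15.00 and a highest value of 15.68. The groups thus overlapped through LM0 alone, which lay below the highest differentiated tumor, T64. This gave a log2 fold change of 1.12 (SE 0.21, 2.17-fold, limma adjusted p = 0.0031), with a mean of 16.15 ± 0.49 (SD, n = 5) against 15.04 ± 0.36 (SD, n = 13).

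The second SRGN probe showed a larger difference, and its groups did not overlap. Its levels in the undifferentiated reference tumors were 15.48 in T9.1, 14.84 in T57.1, 14.52 in T73, 13.87 in LM0 and 13.86 in T90. The differentiated ones ranged from 12.101 to 13.76 with a median of 12.92. The log2 fold change was 1.56 (SE 0.28, 2.95-fold, limma adjusted p = 0.0025). Of all probes, 0.826% were higher in undifferentiated reference tumors without overlap. Within the 4 scan sessions that held both classes, the difference ran from 0.76 to 1.82 for the main and from 0.95 to 2.40 for the second probe, higher in undifferentiated tumors in 4 of 4. With scan session as a block, the log2 fold changes were 1.29 and 1.73, with limma adjusted p of 0.0114 and 0.0133, above the limit of 0.01 and so not called, and with sex and age as covariates the adjusted p were 0.0146 and 0.01, neither under the limit. The main probe was not called without T9.1 (limma adjusted p = 0.0116) or without T73 (0.0109), whereas the second was called without any single tumor (0.00194 to 0.00891). T9.1 and T73 were the highest reference tumors at the main probe, so leaving either out lowers its difference by construction.

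Tryptase, the most selective of the mast cell proteases, had lower levels in the undifferentiated reference tumors, but the difference did not pass the limits. The main TPSAB1 probe had 15.38 in T9.1, 15.67 in T57.1, 16.18 in LM0, 16.45 in T90 and 16.62 in T73. All 5 lay below the median of the 13 differentiated tumors, 16.68, whose range was 15.52 to 17.03, and 1 of them, T9.1, lay below that range. The log2 fold change was -0.41 (95% interval -0.93 to 0.11, limma adjusted p = 0.333), and that of the second probe was -0.55 (-1.14 to 0.04, adjusted p = 0.251). Within the 4 scan sessions the main probe was lower in 2 and higher in 2 (-1.39 to 0.34). Without T9.1 the log2 fold changes of the main and second probe were -0.24 and -0.34 (limma adjusted p = 0.639 and 0.527). T9.1 was the lowest reference tumor at both probes, so leaving it out shrinks the difference by construction.

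Chymase, which cleaves after aromatic residues, had no common direction among the undifferentiated reference tumors. Its levels were 17.85 in T90, 17.74 in T73, 17.34 in T9.1, 16.61 in T57.1 and 15.45 in LM0, against a range of 15.79 to 17.59 in the differentiated ones. T90 and T73 thus lay above and LM0 below all 13 differentiated tumors. Its log2 fold change was 0.28 (95% interval -0.46 to 1.02, limma adjusted p = 0.685). It was 0.77 (adjusted p = 0.25) with scan session as a block, where 4 of 4 sessions were higher, and 0.00 with sex and age as covariates. No differentiated reference tumor shared the session of LM0, the low tumor, so neither the block nor the session count draws on it. Without LM0 the log2 fold change was 0.66 (limma adjusted p = 0.235).

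Cathepsin G, a protease shared by mast cells and neutrophils, was at 6.24 in LM0, 5.88 in T9.1, 5.74 in T90, 5.50 in T73 and 5.39 in T57.1. All 5 lay above the differentiated median of 4.71 and none above the highest differentiated tumor, T64 with 6.64. The difference of 0.92 (95% interval 0.25 to 1.60) had a limma adjusted p of 0.0856 and was not called. Without T64 it was 1.07 (limma adjusted p = 0.00909), past both limits, its only call among 30 alternatives. As T64 was the highest differentiated tumor, leaving it out raises the difference by construction and is no test of it. After normexp background correction, with an offset of 50, the difference was 0.23 (adjusted p = 0.198), and with scan session as a block 0.66 (0.411).

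NDST2, the enzyme that starts the sulfation of heparin, spread widely among the 5 undifferentiated reference tumors. Its main probe was at 16.08 in T9.1, 15.23 in T73, 14.94 in T90, 13.63 in LM0 and 12.96 in T57.1, and only T9.1 lay above and LM0 and T57.1 below the differentiated range of 14.22 to 15.96. The fitted log2 fold change was -0.29 (95% interval -1.13 to 0.56, limma adjusted p = 0.715). SLC18A2 was at 11.98 in T90, 11.79 in LM0, 11.76 in T9.1, 10.83 in T73 and 10.43 in T57.1, against 10.47 to 12.08 in the differentiated tumors. Its log2 fold change was -0.04 (-0.65 to 0.57, adjusted p = 0.956).

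**Figure D1:**
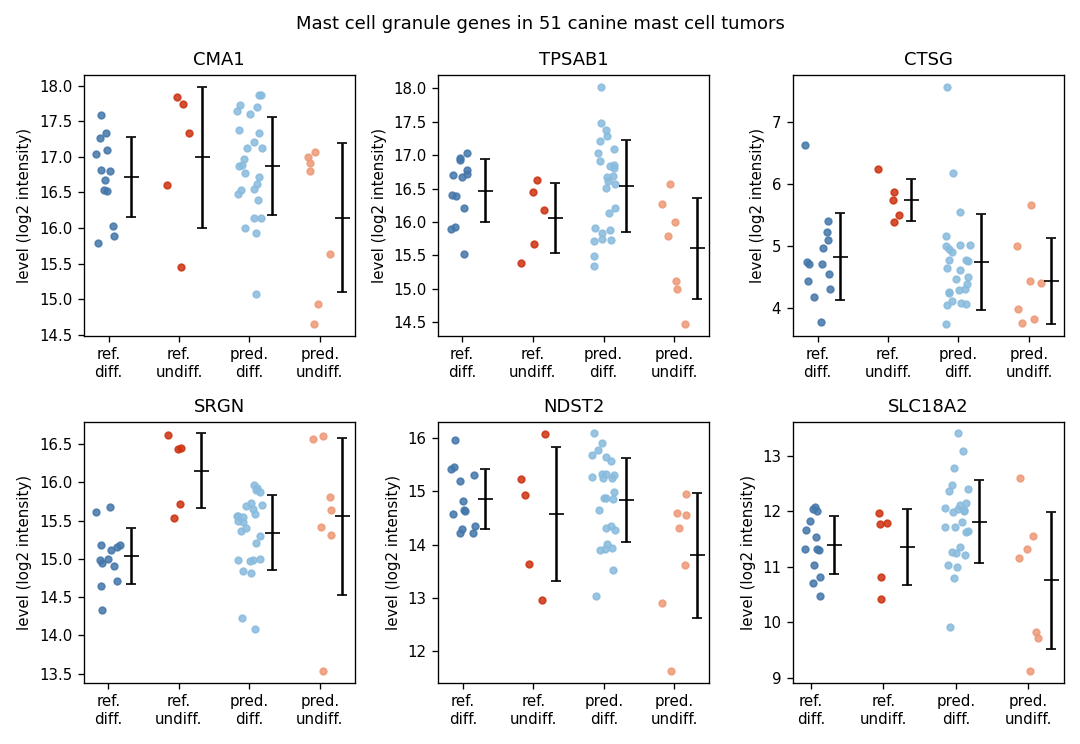
Level (log2 intensity) of the main probe of each gene in each of 51 tumors, 1 point per tumor, by group, with bars for the mean and 1 SD. The 5 undifferentiated reference tumors lie between 15.54 and 16.62 for SRGN, against 14.33 to 15.68 in the 13 differentiated ones, and 3 predicted undifferentiated tumors lie low in CMA1, TPSAB1 and SLC18A2.

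In the predicted tumors 0 of the 9 member probes were called by limma, where 1.0% of all probes were, and none was called with the methods' t-test either. At an unadjusted p under 0.05, 6 of the 9 probes were lower in undifferentiated tumors and 0 higher, beside 19.4% of all probes in either direction. The class of these tumors was itself predicted from transcripts on the same arrays. TPSAB1 had the smallest adjusted p of the members. Its main probe ran from 14.48 to 16.57 in the 7 undifferentiated tumors with a median of 15.80, and from 15.34 to 18.02 in the 26 differentiated ones with a median of 16.64. All 7 lay below the differentiated median and 3 of them, T77, T80 and T114.1, below the whole differentiated range. The log2 fold changes of both probes were -0.93 (SE 0.29, limma adjusted p = 0.0527) and -1.01 (SE 0.32, adjusted p = 0.0582). Within the 4 scan sessions with both classes the main probe was lower in 4 of 4 (-1.70 to -0.11) and the second in 3 of 4 (-1.96 to 0.02). Without T77, T80 and T114.1 the difference of the main probe was -0.38 (limma adjusted p = 0.857). These 3 tumors stood out by their low levels in the members themselves. Leaving them out, here and below, therefore shrinks such differences by construction and is no test of them.

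SLC18A2 was lowest in the same 3 tumors, with 9.13 in T114.1, 9.72 in T80 and 9.83 in T77, all below the lowest predicted differentiated tumor, T81 with 9.92. Another undifferentiated tumor, T49, was near the other end with 12.60. SLC18A2 had a log2 fold change of -1.05 (95% interval -1.78 to -0.33, limma adjusted p = 0.0747). NDST2 reached its lowest value of the series in T114.1, with 11.63, followed among these 7 tumors by T80 with 12.91, and its log2 fold change was -1.05 (-1.79 to -0.30, adjusted p = 0.0865). Without T77, T80 and T114.1 the differences were -0.16 for SLC18A2 and -0.24 for NDST2 (adjusted p = 0.956 and 0.95). CMA1 was at 14.65 in T114.1, 14.93 in T77 and 15.63 in T80, while the other 4 undifferentiated tumors had 16.81 to 17.07, and its log2 fold change was -0.73 (-1.38 to -0.07, adjusted p = 0.193). T114.1 and T80 were thus among the 5 lowest of 51 tumors in each of these 4 members, and T77 in each but NDST2.

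SRGN did not share that pattern. Its main probe ran from 13.54 in T77 to 16.61 in T132 with a median of 15.64 in predicted undifferentiated tumors, against 14.08 to 15.96 with a median of 15.49 in predicted differentiated ones. T77 was thus the lowest and T132 and T49 the highest of the 33, and the log2 fold change was 0.22 (95% interval -0.32 to 0.75, limma adjusted p = 0.734). CTSG was dim in both groups, with medians of 4.4 and 4.62, and its single highest value of the series, 7.58, was in the differentiated tumor T121.

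**Figure D2:**
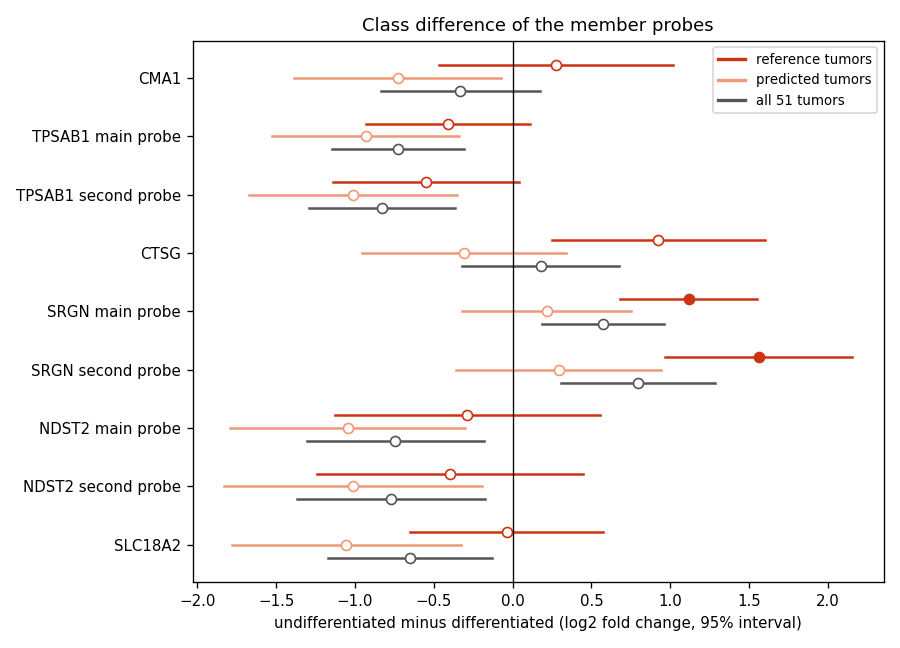
Log2 fold change, undifferentiated minus differentiated, of the 9 member probes with its 95% interval, in the 18 reference, the 33 predicted and all 51 tumors. Filled points mark the called differences, which are the SRGN probes in the reference tumors (1.12 and 1.56), and open points all others.

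The difference between the class differences of predicted and reference tumors was tested directly. No member probe passed an adjusted p of 0.05 by limma, where 0.0963% of all probes did. At an unadjusted p under 0.05, 4 of the 9 did, beside 13.7% of all probes. The predicted difference was lower than the reference one by 0.90 for the main and 1.27 for the second SRGN probe (limma adjusted p = 0.283 and 0.226), by 1.23 for CTSG (0.252) and by 1.005 for CMA1 (0.362). The SRGN difference thus passed the limits in the reference tumors and not in the predicted ones, and the test of the difference between both sets did not pass either.

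Over all 51 tumors 0 of the 9 member probes were called by limma, where 2.36% of all probes were, and 7 had an unadjusted p under 0.05, beside 26% of all probes. With an adjusted p under 0.05 and no limit on the fold, which 14.4% of all probes passed, there were 4: both TPSAB1 probes, lower (as were 6.90% of all probes), and both SRGN probes, higher (7.51%). TPSAB1 was lower than the median of the 39 differentiated tumors in 12 of 12 undifferentiated ones, at both probes. Its log2 fold changes were -0.73 (SE 0.21, adjusted p = 0.0125) and -0.83 (SE 0.23, adjusted p = 0.00993), 1.65-fold and 1.78-fold lower and so under the limit of 2. SRGN was above the differentiated median in 11 of 12 undifferentiated tumors at the main probe, the exception being T77, with log2 fold changes of 0.57 (SE 0.19, adjusted p = 0.0359) and 0.79 (SE 0.24, adjusted p = 0.0192). With scan session as a block the adjusted p of TPSAB1 was 0.0807 and 0.0657, and without T77, T80 and T114.1 it was 0.278 and 0.215. Without these 3 tumors the SRGN differences were 0.93 and 1.20 (adjusted p = 2e-04 and 0.000201), the second past both limits. T77 was the lowest tumor of the series in SRGN, so leaving it out raises the SRGN differences by construction. With sex and age as covariates the SRGN differences were 0.43 and 0.61 (adjusted p = 0.217 and 0.15), and neither passed.

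The remaining members did not pass an adjusted p of 0.05 over the 51 tumors. The log2 fold changes were -0.75 (limma adjusted p = 0.0645) and -0.77 (0.0736) for the NDST2 probes, -0.65 (0.083) for SLC18A2, -0.33 (0.448) for CMA1 and 0.18 (0.736) for CTSG. Without the same 3 tumors CMA1 turned to 0.18 (adjusted p = 0.747). The median log2 fold change of the 9 probes was -0.65, beside -0.01 for all probes, -0.93 beside -0.04 in the predicted tumors and -0.04 beside 0.04 in the reference tumors.

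**Figure D3:**
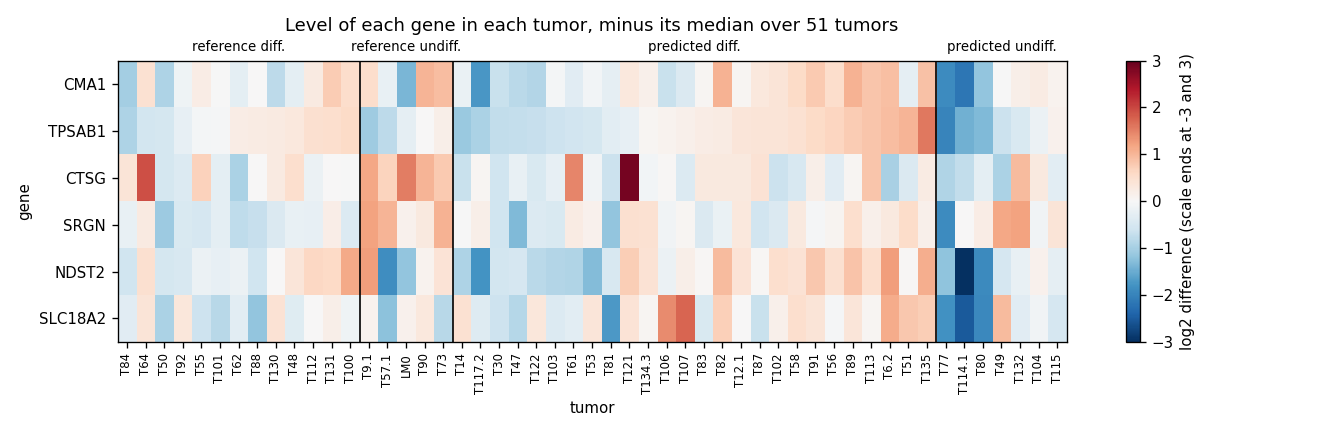
Level of each gene in each of 51 tumors minus the median of that gene over all tumors (log2, colour, with the scale ending at 3 in either direction), tumors ordered by group and within a group by TPSAB1. T77, T114.1 and T80 stand at the left of the predicted undifferentiated tumors with low values in CMA1, TPSAB1, NDST2 and SLC18A2, while SRGN was low in T77 alone of the 3.

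The spread of the members over the tumors was wide. The SD of the main probes was 0.63 for SRGN, 0.70 for TPSAB1, 0.77 for CMA1, 0.83 for SLC18A2 and 0.90 for NDST2, against a median SD of 0.44 over the 27620 probes well above background on at least 40 arrays. Of those probes, between 73% and 87.9% had a smaller SD than these 5. From its lowest to its highest tumor NDST2 ranged over 21.98-fold, SLC18A2 over 19.2-fold, TPSAB1 over 11.7-fold, CMA1 over 9.3-fold and SRGN over 8.45-fold. T114.1 and T77 were each among the 5 lowest of 51 tumors in 5 of the 6 genes and T80 in 4, and no other tumor was so in more than 2. For T114.1 and T77 the 5 genes include CTSG, which was not well above background in either. T117.2, a predicted differentiated tumor, was among the 5 lowest in CMA1 and NDST2.

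The mast cell identity of the tissue was checked with other mast cell genes. Of 10 such genes, 5 were measured (KIT, FCER1A, MS4A2, HPGDS and ENPP3), all well above background on 51 of 51 arrays. Their mean level ran from 13.55 to 15.05 in differentiated and from 12.81 to 15.53 in undifferentiated reference tumors, and from 12.84 to 15.60 and from 11.96 to 15.27 in the predicted ones. No gene of the 5 was called in any comparison. In the predicted tumors all 5 had negative log2 fold changes, with a median of -0.58, among them HPGDS with -1.38 (limma adjusted p = 0.0206) and KIT with -1.20 (0.101), and over all 51 tumors HPGDS had an adjusted p of 0.0229. The mean level was 11.96 in T114.1, 12.92 in T77 and 13.11 in T80, against a median of 13.98 in predicted undifferentiated tumors. Over the 51 tumors it correlated with NDST2 (r = 0.85), CMA1 (0.77), SLC18A2 (0.72) and TPSAB1 (0.69), less with SRGN (0.33) and CTSG (0.16), as a description over tumors that share arrays and normalisation. In bulk tissue fewer mast cells and less RNA per mast cell cannot be told apart, and the part of mast cell content in the differences above was not tested.

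Among the markers of other cell types, only neutrophil and macrophage genes were called in any comparison. Of 8 neutrophil genes, 3 were measured (S100A8, S100A9 and CSF3R), and all 3 were called higher in predicted undifferentiated tumors and over all 51 tumors. In the predicted tumors the log2 fold changes were 4.26, 4.74 and 2.25 (limma adjusted p = 0.00975, 0.00441 and 0.00796). In the reference tumors they were 3.78, 3.92 and 2.32, with adjusted p of 0.0735 to 0.0902. None of the 3 was called in the predicted tumors with scan session as a block (0.0106 to 0.0671) or with sex and age as covariates (0.0137 to 0.0704), and without T77, T80 and T114.1 S100A8 and S100A9 were not (0.347 and 0.226). MPO and ELANE, the defining neutrophil granule genes, were not analysed here, and whether neutrophils were more abundant was not tested. The mean level of the 3 measured genes ran from 6.41 to 11.79 in differentiated and from 7.65 to 15.50 in undifferentiated reference tumors. In predicted ones it ran from 6.88 to 13.74 and from 9.85 to 15.54. It correlated with NDST2 (r = -0.55), SLC18A2 (-0.52) and TPSAB1 (-0.40), and had an r of 0.00 with CTSG. CTSG was well above background on only 36 of 51 arrays, and whether neutrophils add to its level was not tested. SRGN had its highest r with the 2 measured of 5 eosinophil genes (0.43), whose mean level ran from 5.05 to 10.33 in differentiated and from 5.35 to 10.55 in undifferentiated reference tumors, and its lowest with the 3 measured of 4 keratinocyte genes (-0.46). The keratinocyte level ran from 3.63 to 14.55 and from 3.68 to 13.16 in these groups. It was 15.09 in T77, 14.62 in T80 and 13.21 in T114.1, among predicted undifferentiated tumors with a range of 4.95 to 15.44 and a median of 13.21. CTSG had its highest r with the 4 measured of 5 T cell genes (0.41), which ran from 6.17 to 8.26 and from 5.07 to 8.23. The mean levels of macrophage (6 of 6 measured), fibroblast (6 of 6) and endothelial genes (4 of 4) had an r between -0.43 and 0.26 with every member. Single genes reached -0.52 (CDH5 with NDST2) and 0.38 (CD163 with SRGN). CDH5 was well above background on only 7 of 51 arrays and TEK, another endothelial gene, on 4, so most of their values lie near the background. VWF, well above background on 51 arrays, reached -0.47 (with SRGN). CSF1R was called lower in undifferentiated reference tumors (-1.92, limma adjusted p = 0.00626), but not with scan session as a block (0.0686), with sex and age as covariates (0.0187) or without LM0 (0.022). C1QA was called lower over all 51 tumors (-1.03, 0.00781), but not with scan session as a block (0.0197), with sex and age (0.0261) or without T77, T80 and T114.1 (0.0453). The part of these cells in the class differences was not tested.

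How the members varied together was measured over the 51 tumors, for the 15 pairs of their main probes. Of these, 9 pairs correlated at a Benjamini-Hochberg adjusted p under 0.05 (permutation test, 100000 resamples, two-sided), all 9 positively. The share of such pairs among all genes of the array was not computed, so the count cannot show whether this is particular to the members. CMA1 and NDST2 had the highest r, 0.81 (Spearman rho 0.82, adjusted permutation p = 3.7e-05, which rests on the smallest p that the resamples can give, 1e-05). NDST2 and TPSAB1 followed with 0.73 (rho 0.75) and CMA1 and TPSAB1 with 0.69 (rho 0.64), both with the same adjusted p. Within the 39 differentiated tumors the 3 values were 0.80, 0.79 and 0.69, and within the 12 undifferentiated ones 0.83, 0.53 and 0.74, of which that of NDST2 and TPSAB1 did not pass (adjusted permutation p = 0.15). As residuals of class and scan session they were 0.80, 0.70 and 0.69, and without the 2 tumors farthest from the median of the first gene 0.77, 0.68 and 0.60.

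SLC18A2 correlated with NDST2 (r = 0.59, adjusted permutation p = 3.7e-05), TPSAB1 (0.52, 0.00039) and CMA1 (0.47, 0.0018). These relations rested in part on the low tumors: without T77, T80 and T114.1 the r with CMA1 was 0.20, with TPSAB1 0.30 and with NDST2 0.38. As these tumors are low in the same genes, leaving them out lowers such r by construction. SRGN correlated with CTSG (0.39, adjusted permutation p = 0.01), CMA1 (0.39, 0.01) and SLC18A2 (0.35, 0.018), and its r with NDST2 (0.17, 0.30) and TPSAB1 (0.15, 0.35) did not pass. Once both values were centred on the mean of their class, SRGN correlated with SLC18A2 at 0.56 (adjusted permutation p = 0.00015), with CMA1 at 0.50 (5e-04), with TPSAB1 at 0.38 (0.0084) and with NDST2 at 0.35 (0.019). Centred in the same way, SLC18A2 had an r of 0.54 with NDST2, 0.44 with CMA1 and 0.43 with TPSAB1. Without centring, and without the 2 tumors farthest from the SRGN median, SRGN and TPSAB1 had an r of -0.07, beside 0.15 over all 51 tumors. The r of CTSG with CMA1 (0.25), NDST2 (0.21), SLC18A2 (0.11) and TPSAB1 (0.03) did not pass.

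**Figure D4:**
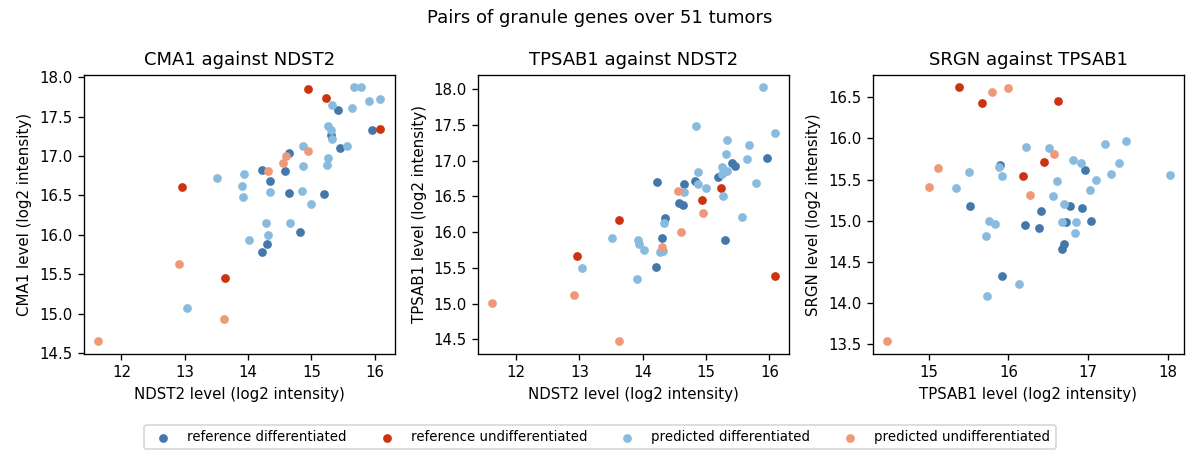
Levels (log2 intensity) of 3 pairs of genes, 1 point per tumor, coloured by group. CMA1 and TPSAB1 rise with NDST2 over the 51 tumors (r = 0.81 and 0.73), while SRGN has no such relation with TPSAB1 (r = 0.15), 11 of 12 undifferentiated tumors lying above the differentiated median in SRGN and 12 of 12 below it in TPSAB1, with overlap.

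**Figure D5:**
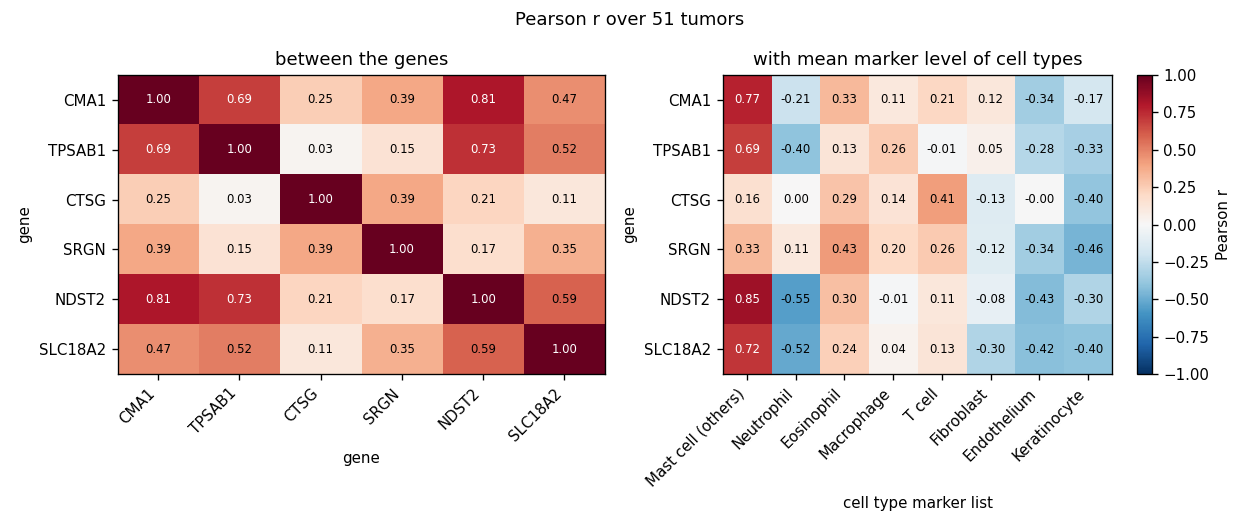
Pearson r over 51 tumors between the 6 genes (left) and between each gene and the mean level of the measured markers of 8 cell types (right). CMA1, TPSAB1, NDST2 and SLC18A2 share r of 0.47 to 0.81 with each other and of 0.69 to 0.85 with the other mast cell genes, and SRGN and CTSG have r of at most 0.39 with the other members, before any centring on class.

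For each member, the 3 other genes with the most similar pattern over the 51 tumors were picked by Pearson r among 8622 gene symbols well above background on at least 40 arrays. For TPSAB1 these were PTGER3 (r = 0.80), a prostaglandin E2 receptor, PDCD1LG2 (0.80), the ligand PD-L2, and TRIM47 (0.79). For SLC18A2 they included GPM6A (0.83) and HPGD (0.80), which inactivates prostaglandins. For NDST2 they were SKAP1 (0.85), an adaptor of immune receptor signalling, SDCCAG8 (0.85) and TTC38 (0.84), and for CMA1 EFCAB6 (0.80), TAPBP (0.79), the tapasin of antigen loading, and GTDC1 (0.78). For SRGN they were RBKS (0.79), ATP6V0E1 (0.77), a subunit of the proton pump that acidifies vesicles, and CIAO2A (0.77). CTSG had the least similar neighbours, LRRC46 (0.72), CD27 (0.63), a lymphocyte receptor, and CAMP (0.60), an antimicrobial peptide of neutrophil granules. The r with CTSG was 0.82, 0.73 and 0.76 within the 39 differentiated and 0.58, 0.30 and 0.08 within the 12 undifferentiated tumors, a difference that was not tested. All these tumors served to pick the neighbours.

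Genes around the granule were read from 4 lists written from general knowledge. Of 26 genes that build or sulfate heparin and chondroitin chains, 23 were measured. In the reference tumors 1 of the 23 was called, CHSY1, which polymerises chondroitin, higher by 1.21 (SE 0.26, limma adjusted p = 0.00751). Of the 23, 20 were well above background on at least 40 arrays. The list median of 0.23, beside 0.04 for all probes, is the value of HS6ST2, whose probe was well above background on 0 arrays. CHSY1 was not called with scan session as a block (adjusted p = 0.0156), with sex and age as covariates (0.0343) or without any 1 of 12 of the 18 reference tumors (0.0104 to 0.017), and after normexp background correction its 0.98 was under the limit on the fold. Over the 51 tumors CHST11, which sulfates chondroitin, was the 1 gene called, with 1.52 (SE 0.29, adjusted p = 0.00018), and with 0.72 after normexp background correction, under the limit on the fold. It was not called in either set alone (1.78 with adjusted p = 0.0516 in reference and 1.35 with 0.0123 in predicted tumors). In the predicted tumors 0 of the 23 were called.

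Of 14 genes of amine handling, 10 were measured. DDC, the decarboxylase that makes serotonin and dopamine, was the 1 gene called, higher in the reference tumors by 2.19 (SE 0.37, limma adjusted p = 0.0017), and it was not called with scan session as a block (adjusted p = 0.0279). In the predicted tumors its log2 fold change was 0.23 (adjusted p = 0.822). The median of the list was -0.37 in reference and -0.28 in predicted tumors. Of 20 protease relatives, processing enzymes and inhibitors 11 were measured, and of 21 genes of granule exocytosis 13, with 0 called in the 3 comparisons. Their median log2 fold changes were -0.30 and -0.19 in reference and 0.42 and -0.28 in predicted tumors.

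Sex and age were tested in the tumors with both labels, with the 4 groups in the fit. No member probe was called for sex by limma, where 0.0642% of all probes were, nor for age, where 0% were. At an unadjusted p under 0.05 there were 0 of 9 for either. The largest sex difference was that of SLC18A2, lower in females by 0.40 (95% interval -0.88 to 0.07, limma adjusted p = 0.855). Age differences ran from -0.02 to 0.04 per year.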

How the data were processed

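RNA of 51 tumors was hybridised on one-colour Agilent canine arrays. The deposited scanner files hold, for each spot, the processed signal, an intensity from which the authors' Feature Extraction software had subtracted background; a second deposited table holds intensities that the authors had quantile-normalised. Classes were taken from the study by tumor name. Here log2 processed signals of 43803 spots that are not controls were quantile-normalised over 51 arrays, spots flagged as outliers were left out and spots of a probe averaged. Class differences were fitted with limma 3.58.1 (R 4.3.3) over 43603 probes, with tumor set as a term over all 51 tumors. The fit was tested on simulated data. SAM, which the study used, was not run. All member probes are named, with the 3 nearest genes of each (1 is not reported here) and the called genes of each list (heparin and chondroitin synthesis, amine handling, protease relatives, exocytosis, cell markers). Members and lists were chosen with earlier results of these data known. Spots with a flagged background ring (1 to 32 arrays in 6 of the 9 member probes) were kept, a choice made after seeing the data. Alternatives covered scaling, background, the authors' table, flags, dim probes, slide, scan session, sex and age, thresholds, the methods' t-test and left-out tumors. The tumors are of separate cases, 1 per array. Their number limits precision, and so can scan session, flagged spots and dim probes.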

Additional observations from a re-analysis of the deposited data

Results flagged for a closer look

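Among 18 groups of 4 to 10 tumors examined for a value far from the others, 1 was found. The groups share tumors, and 3 of the genes have 2 probes, so the 18 are not independent. The share that chance would give was not computed. In the 7 predicted undifferentiated tumors the main SRGN probe was at 13.54 in T77, with the nearest tumor at 15.32, a gap of 0.578 of the whole range. The second SRGN probe was also lowest in T77, at 11.12.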

How the results depend on the processing

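In the reference tumors 0 member probes were called with scan session as a block and 0 with sex and age as covariates, and between 1 and 3 when each tumor was left out in turn, with 1 without T9.1 or T73 and 3 without T64, where CTSG was added. Over all 51 tumors 4 passed an adjusted p of 0.05 without a fold limit, and 1 was called without T77, T80 and T114.1. Among the reference tumors, T9.1 and T73 were highest in the main SRGN probe. T64 was the highest differentiated one in CTSG, so leaving these tumors out shifts the differences by construction. For sex and age in the reference tumors and for left-out tumors, the share over all probes is not given. There, a change in the members cannot be told from one over the whole array. Changes of sign were found in values that passed no test. SLC18A2 in the reference tumors was 0.055 with scaling to the 75th percentile and -0.19 to 0.20 over left-out tumors and other settings, being positive without T57.1 (0.20), T64 (0.02), T73 (0.10), T92 (0.01) or T130 (0.02). NDST2 was 0.12 without T57.1 and -0.67 without T9.1. SRGN in the predicted tumors was -0.051 with sex and age as covariates. Without T77, T80 and T114.1, which stood out by low levels in CMA1 itself, CMA1 was 0.075 in the predicted and 0.18 in all tumors. With spots of flagged background rings left out, the main TPSAB1 probe lacked 32 of 51 arrays, 4 of the 5 undifferentiated reference tumors among them, so that its difference there would rest on 1 tumor and is not given. After normexp background correction 416 probes over the array were called in the reference, 219 in the predicted and 426 in all tumors, against 805, 437 and 1031. With scan session as a block 345 and 170 were called in the reference and predicted tumors, and with sex and age 183 in the predicted ones. The causes were not tested. No paired analysis was possible because the tumors share no replicate numbers. CTSG lies near the background, which limits its values.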
